A study of Saccharomyces cerevisiae with 8 samples.

Results

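Transcript levels of genes of the yeast vacuole were followed in cells challenged with zinc or expressing a plant defensin. The genes were chosen by function, with earlier results of these data known. They encode the vacuolar H+-ATPase and its assembly factors, the vacuolar hydrolases, the polyphosphate polymerase complex, vacuolar ABC and amino acid transporters, and proteins of vacuole fusion and inheritance. Of 43 genes named, 38 were matched to a probe out of 6226 genes measured, unnamed probes included. The amino acid transporter genes AVT1, AVT3, AVT4, AVT6 and AVT7 were not matched to a named probe and were not analysed here. VMA1 and VMA11 carried their older symbols TFP1 and TFP3 on the array, and CUP5, PPA1 and LAP4 are the array's names of the genes now called VMA3, VMA16 and APE1.

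All cells were of the Mat a strain BY4741, which carries the alleles ura3∆0, met15∆0, leu2∆0 and his3∆1, with the empty pFL38H vector, which carries HIS3. Yeast labelled WT did not express AhPDF1.1b, and yeast labelled WTD, called AhPDF1.1b yeast here, expressed this plant defensin from pYX212 under the constitutive promoter of the yeast triose phosphate isomerase. The pYX212 plasmid carries URA3, which the strain lacks, and the log2 signal of URA3 was 15.40 to 15.64 on the arrays of WT yeast and 14.16 to 14.55 on those of AhPDF1.1b yeast. WT yeast thus also held a source of URA3, which the labels do not name, and the controls of the study's growth assays carried empty pYX212. Both were grown on solid glucose medium buffered at pH 4.5, without added zinc or with 20 mM ZnSO4, and harvested at the same colony diameter, with 2 biological replicates and thus 2 arrays for each of the 4 conditions.

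The vacuole is the acidic, degradative and storage compartment of the yeast cell. Its H+-ATPase couples ATP hydrolysis in the peripheral V1 sector to proton transport through the membrane-bound VO sector, and the proton gradient drives the exchangers that load the vacuole with zinc, calcium and amino acids. The compartment also holds polyphosphate, a polymer that binds metal cations, and a set of peptidases that reach it as inactive precursors and are activated by proteinase A.

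The values were log2 signals that the authors had already normalized, and a difference of 1 is a 2-fold change. Each value is relative to the other transcripts on the same array, and a change in all cells of a colony cannot be told apart from a larger change in some of them. Correlations between replicates ranged from 0.996 to 0.998 over all genes. LEU2 and MET17, which this strain lacks, gave probe signals of 5.54 to 5.79, and the lowest signal of any member on any array was 7.45. The arrays lay on 2 slides. Each slide held 1 control array of either yeast, but the zinc arrays of WT yeast all lay on slide 2 and those of AhPDF1.1b yeast on slide 1. For AhPDF1.1b under zinc no slide holds both groups, so slide and group cannot be told apart there without the control arrays, and values from a fit with slide as a block stand beside that effect below.

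Zinc lowered the transcripts of most vacuolar members in WT yeast. By the moderated test of limma with Benjamini-Hochberg adjustment over all genes, at a threshold of 0.05, 26 of the 38 members fell, 4 rose and 8 did not pass. Over all 6226 genes, 59.3% changed in this comparison, with 31.5% that fell and 27.8% that rose. The median log2 change of the members was -0.36 and that of all genes was -0.03. In AhPDF1.1b yeast 21 members fell with zinc and 5 rose, where 45.8% of all genes changed, 24% downwards and 21.8% upwards, and the median log2 change was -0.26 for the members and -0.01 for all genes. There were 20 members that fell and 4 that rose in both yeasts, and none that passed in opposite directions. The shares of all genes with these patterns were not counted. Arrays with and without zinc did not overlap for 35 of the 38 members in WT yeast and 30 in AhPDF1.1b yeast. Over all genes this held for 80.6% and 70.9%, so that such a separation did not set a gene apart. Of the members, 23 were among the 1557 genes with the highest mean signal. In WT yeast 15 of these 23 fell with zinc and 2 rose, whereas 41.6% of the 1557 fell and 31.6% rose. In AhPDF1.1b yeast 13 of the 23 fell and 2 rose, whereas 30.1% of the 1557 fell and 25.3% rose.

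**Figure D1:**
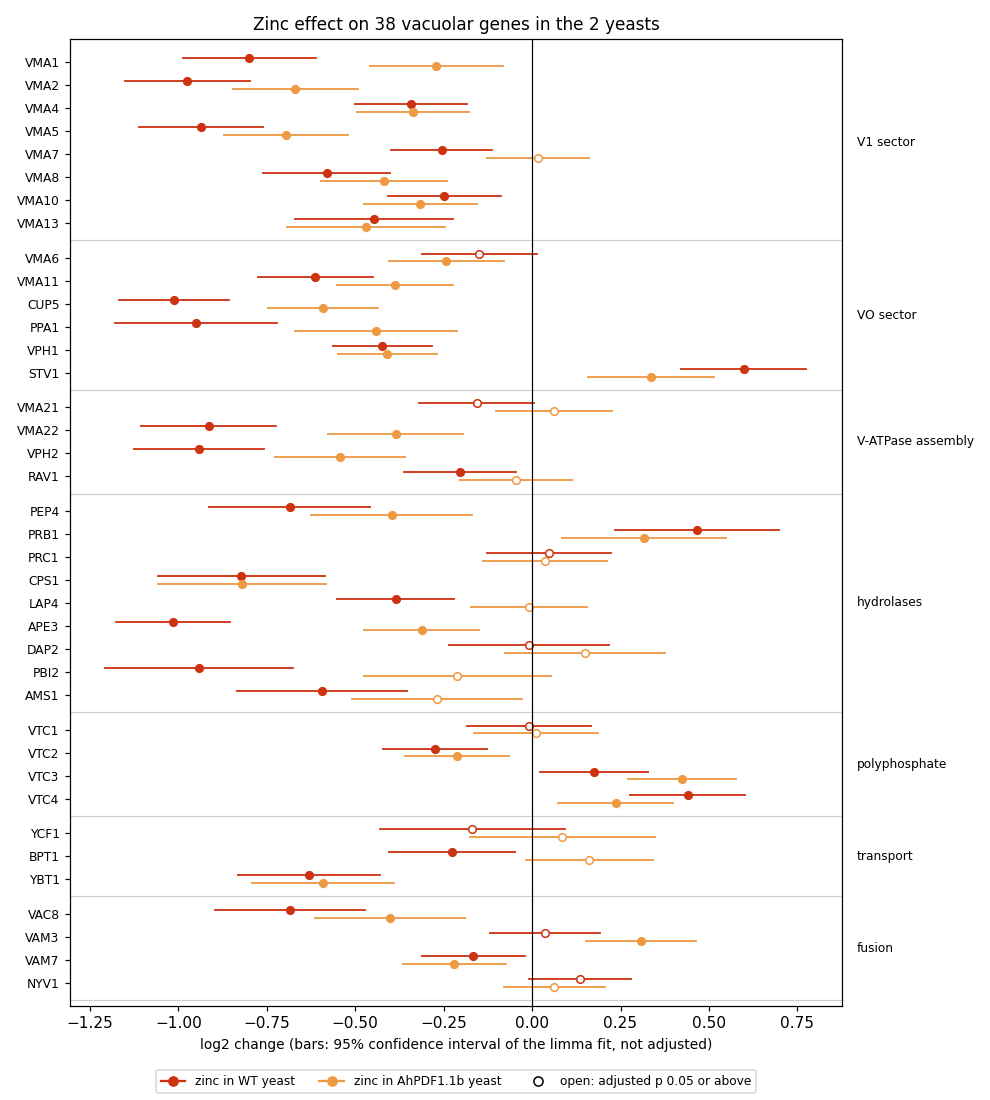
Log2 change with zinc (x axis) of each of the 38 vacuolar members (rows, grouped by class) in WT yeast and in AhPDF1.1b yeast, with bars for the 95% confidence interval of the limma fit and open circles for changes at an adjusted p of 0.05 or above. Of the 14 subunit genes of the V-ATPase, all but STV1 lie below 0 in WT yeast.

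Among the 14 V-ATPase subunit genes 12 fell with zinc in each yeast, 1 rose and 1 did not pass. Of all genes 31.5% fell in WT yeast and 24% in AhPDF1.1b yeast. All 8 measured genes of the V1 sector fell with zinc in WT yeast, with a median log2 change of -0.51. VMA2 (YBR127C), which encodes the B subunit that together with subunit A forms the ATP-hydrolysing head, had log2 signals of 11.86 and 12.01 in WT yeast and 11.80 and 11.76 in AhPDF1.1b yeast on control medium, and 10.89 and 11.02 in WT yeast and 11.17 and 11.06 in AhPDF1.1b yeast under zinc. All 4 zinc arrays were lower than the 4 control arrays. Its log2 change with zinc was -0.98 in WT yeast (SE 0.08, adjusted p = 2.3e-06, limma), a 1.97-fold decrease, and -0.67 in AhPDF1.1b yeast (SE 0.08, adjusted p = 7.2e-05).

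VMA5 (YKL080W), the gene of subunit C, which joins V1 to VO and leaves the enzyme when the sectors separate, followed the same course. Its signals were 9.51 and 9.45 in WT yeast and 9.20 and 9.37 in AhPDF1.1b yeast on control medium, and 8.60 and 8.49 in WT yeast and 8.63 and 8.55 in AhPDF1.1b yeast under zinc. The groups with and without zinc did not overlap in either yeast, and the log2 change was -0.94 in WT yeast (adjusted p = 2.9e-06) and -0.70 in AhPDF1.1b yeast (adjusted p = 5.3e-05).

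VMA1 (YDL185W) encodes the catalytic subunit A. Its signals were 11.82 and 11.90 in WT yeast and 11.72 and 11.90 in AhPDF1.1b yeast on control medium, and 11.08 and 11.05 in WT yeast and 11.62 and 11.46 in AhPDF1.1b yeast under zinc. The lowest values were those of WT yeast under zinc, and AhPDF1.1b yeast under zinc lay between these and the controls. The log2 change with zinc was -0.80 in WT yeast (SE 0.085, adjusted p = 1.6e-05) and -0.27 in AhPDF1.1b yeast (SE 0.085, adjusted p = 0.023). Without AhPDF1.1b control replicate 2 or AhPDF1.1b zinc replicate 2, the change in AhPDF1.1b yeast no longer passed.

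The other V1 genes fell less in WT yeast. Their log2 change in WT yeast was -0.58 for VMA8, the central rotor shaft (subunit D), -0.45 for VMA13 (subunit H, which holds the free V1 sector inactive), -0.34 for VMA4 and -0.25 for VMA10, the E and G subunits of the peripheral stalks, and -0.26 for VMA7 (subunit F). The corresponding changes in AhPDF1.1b yeast were -0.42, -0.47, -0.34, -0.32 and 0.02, of which that of VMA7 did not pass (adjusted p = 0.87). Thus 7 of the 8 V1 genes fell in AhPDF1.1b yeast, with a median of -0.38. The decrease of VMA10 in WT yeast did not pass without WT control replicate 1 or WT zinc replicate 2.

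In the membrane sector VO, 4 of 6 genes fell with zinc in WT yeast, 1 rose and 1 did not pass, beside 31.5% of all genes that fell and 27.8% that rose. Its ring of proteolipids, which carries the protons, is built from the products of CUP5 (subunit c), VMA11 (c′) and PPA1 (c″). CUP5 (YEL027W) had log2 signals of 11.39 and 11.31 in WT yeast and 11.30 and 11.34 in AhPDF1.1b yeast on control medium, and 10.37 and 10.30 in WT yeast and 10.68 and 10.78 in AhPDF1.1b yeast under zinc. The control arrays lay close together in both yeasts, the WT zinc arrays were lowest and the AhPDF1.1b zinc arrays were intermediate. Zinc lowered CUP5 by 1.01 on the log2 scale in WT yeast (SE 0.07, adjusted p = 6.9e-07) and by 0.59 in AhPDF1.1b yeast (SE 0.07, adjusted p = 7.1e-05).

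PPA1 (YHR026W) showed the same order of groups, with signals of 11.16 and 10.99 in WT yeast and 10.96 and 11.11 in AhPDF1.1b yeast on control medium, and 10.23 and 10.03 in WT yeast and 10.48 and 10.70 in AhPDF1.1b yeast under zinc. Its change was -0.95 in WT yeast (adjusted p = 1.9e-05) and -0.44 in AhPDF1.1b yeast (adjusted p = 0.0053; not passed without AhPDF1.1b zinc replicate 1). VMA11 changed by -0.61 and -0.39 (adjusted p = 3.7e-05 and 0.0016). The probes of these related genes were not checked for cross-hybridisation. VMA6, which encodes subunit d, had the smallest change of the sector, -0.15 in WT yeast (adjusted p = 0.1) and -0.24 in AhPDF1.1b yeast (adjusted p = 0.02). The latter did not pass without AhPDF1.1b control replicate 2 or without either AhPDF1.1b zinc replicate.

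The 2 alternative a subunits moved in opposite directions. VPH1 (YOR270C) encodes the form found in the vacuole membrane and STV1 (YMR054W) the form of the Golgi and endosomes. The signals of VPH1 were 10.59 and 10.58 in WT yeast and 10.47 and 10.49 in AhPDF1.1b yeast on control medium, and 10.19 and 10.14 in WT yeast and 10.07 and 10.07 in AhPDF1.1b yeast under zinc. Every zinc array was below every control array. Zinc changed VPH1 by -0.42 in WT yeast (SE 0.063, adjusted p = 0.00018) and by -0.41 in AhPDF1.1b yeast (SE 0.063, adjusted p = 0.00043).

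STV1 had signals of 9.61 and 9.70 in WT yeast and 9.38 and 9.56 in AhPDF1.1b yeast on control medium, and 10.21 and 10.30 in WT yeast and 9.77 and 9.83 in AhPDF1.1b yeast under zinc. Every zinc array was above every control array, with WT yeast under zinc the highest. The log2 change with zinc was 0.60 in WT yeast (SE 0.08, adjusted p = 8.4e-05) and 0.34 in AhPDF1.1b yeast (SE 0.08, adjusted p = 0.006). It was the only one of the 14 subunit genes that rose with zinc in either yeast, and both of its increases passed under each alternative processing tried.

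**Figure D2:**
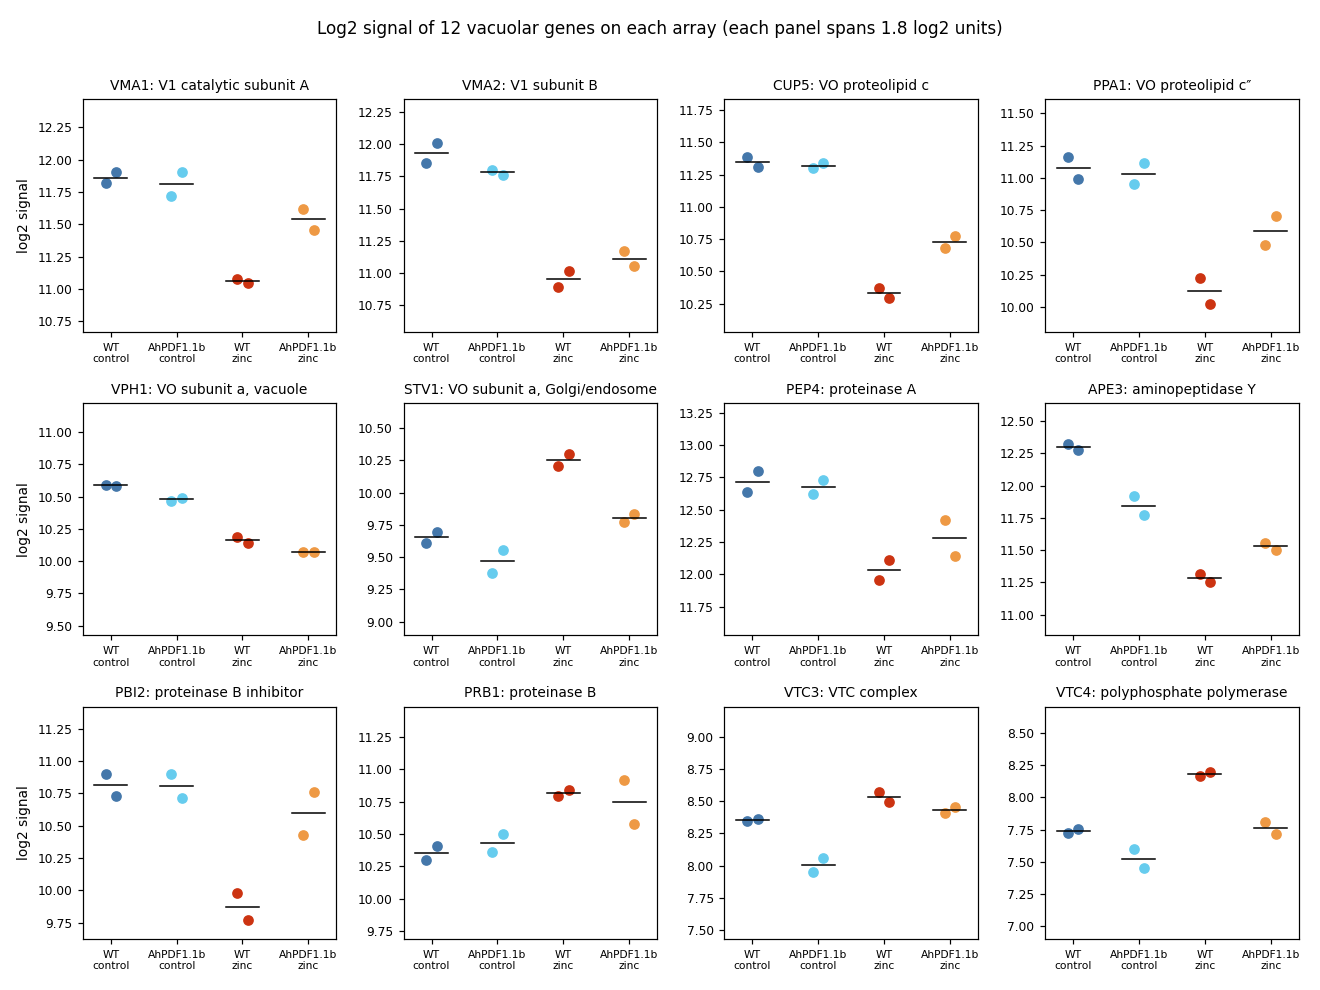
Log2 signal (y axis) of 12 vacuolar genes on each of the 8 arrays, by condition (x axis). Points are single arrays, black lines are the means of 2 arrays, and each panel spans the same number of log2 units, so that STV1 can be seen to rise where VPH1 and the other subunit genes fall.

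Of the 4 genes of factors that assemble the enzyme, 3 fell with zinc in WT yeast and 2 in AhPDF1.1b yeast, beside 31.5% and 24% of all genes. VPH2, VMA22 and VMA21 encode ER proteins needed to assemble VO, and RAV1 encodes a subunit of the complex that rejoins V1 to VO. VPH2 (YKL119C) had log2 signals of 8.59 and 8.52 in WT yeast and 8.41 and 8.34 in AhPDF1.1b yeast on control medium, and 7.52 and 7.71 in WT yeast and 7.77 and 7.90 in AhPDF1.1b yeast under zinc, with each zinc array below each control array. Its log2 change was -0.94 in WT yeast (adjusted p = 4.0e-06) and -0.54 in AhPDF1.1b yeast (adjusted p = 0.0004).

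VMA22 (YHR060W) had signals of 8.75 and 8.60 in WT yeast and 8.51 and 8.61 in AhPDF1.1b yeast on control medium, and 7.81 and 7.72 in WT yeast and 8.08 and 8.26 in AhPDF1.1b yeast under zinc, again with no overlap between the zinc and control arrays. It changed by -0.91 and -0.39 in the 2 yeasts (adjusted p = 6.5e-06 and 0.0039). RAV1 changed by -0.20 in WT yeast (adjusted p = 0.029) and by -0.05 in AhPDF1.1b yeast (adjusted p = 0.64), and VMA21 by -0.16 and 0.06, with neither change of VMA21 passing. The RAV1 decrease did not pass when any 1 of the 4 WT arrays was left out, nor with slide as a block.

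**Figure D3:**
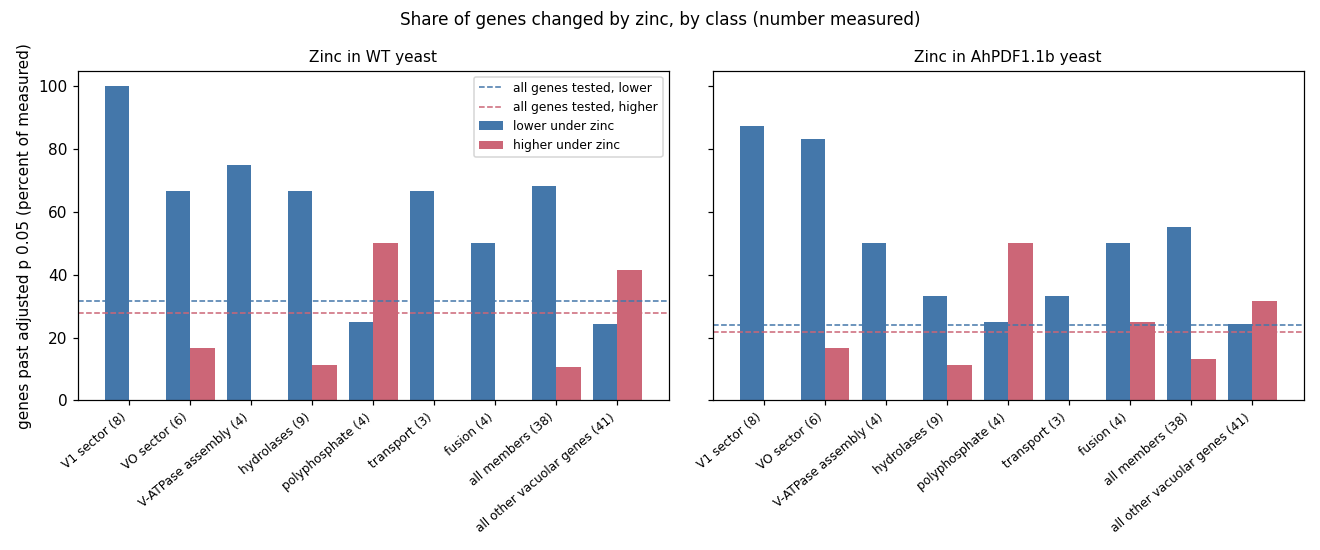
Percent of the measured genes of each class (x axis, number measured in brackets) that fell or rose with zinc at an adjusted p under 0.05, in WT yeast and in AhPDF1.1b yeast, beside the shares over all genes tested (dashed lines). All 8 V1 genes fell in WT yeast, and of the 4 polyphosphate genes 2 rose and 1 fell, where the increase of VTC3 did not pass with slide as a block or after another normalization.

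The vacuolar hydrolases did not move as one. Of 9 genes, 6 fell with zinc in WT yeast, 1 rose and 2 did not pass, and in AhPDF1.1b yeast 3 fell, 1 rose and 5 did not pass. The share that changed was 77.8% in WT yeast, beside 59.3% of all genes. In AhPDF1.1b yeast it was 44.4%, near the 45.8% of all genes. PEP4 (YPL154C), which encodes proteinase A, the protease that starts the activation of the others, had signals of 12.64 and 12.80 in WT yeast and 12.62 and 12.73 in AhPDF1.1b yeast on control medium, and 11.96 and 12.11 in WT yeast and 12.42 and 12.14 in AhPDF1.1b yeast under zinc. The zinc arrays were below the control arrays in both yeasts. The log2 change was -0.69 in WT yeast (adjusted p = 0.00018) and -0.40 in AhPDF1.1b yeast (adjusted p = 0.0091), the latter not passing without AhPDF1.1b control replicate 2 or AhPDF1.1b zinc replicate 2.

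APE3 (YBR286W), the gene of aminopeptidase Y, had, with CUP5, the largest decrease of the members with zinc in WT yeast. Its signals were 12.32 and 12.28 in WT yeast and 11.92 and 11.77 in AhPDF1.1b yeast on control medium, and 11.32 and 11.25 in WT yeast and 11.56 and 11.50 in AhPDF1.1b yeast under zinc. No 2 of the 4 conditions overlapped, with the WT controls highest, the AhPDF1.1b controls next and WT yeast under zinc lowest. Zinc changed it by -1.01 in WT yeast (SE 0.073, adjusted p = 9.0e-07) and by -0.31 in AhPDF1.1b yeast (SE 0.073, adjusted p = 0.0053).

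CPS1 (YJL172W), which encodes the zinc-dependent carboxypeptidase S, gave 8.91 and 9.13 in WT yeast and 9.20 and 9.18 in AhPDF1.1b yeast on control medium, and 8.03 and 8.36 in WT yeast and 8.38 and 8.36 in AhPDF1.1b yeast under zinc. Its decrease had nearly the same size in both yeasts, with a change of -0.82 in WT yeast (adjusted p = 6.8e-05) and -0.82 in AhPDF1.1b yeast (adjusted p = 0.00013). The difference between these changes was 0.00, with a 95% confidence interval from -0.33 to 0.34.

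Proteinase B and its inhibitor moved in opposite directions in WT yeast. PRB1 (YEL060C), the gene of this serine protease, had signals of 10.30 and 10.41 in WT yeast and 10.36 and 10.50 in AhPDF1.1b yeast on control medium, and 10.79 and 10.84 in WT yeast and 10.92 and 10.58 in AhPDF1.1b yeast under zinc, and every zinc array was above every control array. Its log2 change was 0.47 in WT yeast (SE 0.1, adjusted p = 0.0028) and 0.32 in AhPDF1.1b yeast (SE 0.1, adjusted p = 0.029). The increase in AhPDF1.1b yeast did not pass with slide as a block, or without AhPDF1.1b control replicate 1 or AhPDF1.1b zinc replicate 1.

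PBI2 (YNL015W) encodes the cytosolic inhibitor of proteinase B, a small protein that also takes part in vacuole fusion together with thioredoxin. Its signals were 10.90 and 10.73 in WT yeast and 10.90 and 10.72 in AhPDF1.1b yeast on control medium, and 9.98 and 9.77 in WT yeast and 10.43 and 10.76 in AhPDF1.1b yeast under zinc. WT yeast under zinc stood below all other arrays, whereas AhPDF1.1b yeast under zinc overlapped its own controls. The change with zinc was -0.94 in WT yeast (SE 0.12, adjusted p = 5.7e-05) and -0.21 in AhPDF1.1b yeast (SE 0.12, adjusted p = 0.18).

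AMS1, the alpha-mannosidase gene, and LAP4, the gene of aminopeptidase I, both delivered to the vacuole straight from the cytosol, fell in WT yeast with changes of -0.59 and -0.39 (adjusted p = 0.00071 and 0.001). In AhPDF1.1b yeast their changes were -0.27 and -0.01 and neither passed (adjusted p = 0.064 and 0.94). PRC1, which encodes carboxypeptidase Y, and DAP2, which encodes dipeptidyl aminopeptidase B, passed in none of the 5 comparisons. The change of PRC1 with zinc in WT yeast was 0.05, with a 95% confidence interval from -0.13 to 0.22.

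Of the 4 polyphosphate genes 2 rose with zinc in each yeast, 1 fell and 1 did not pass. Over all genes 27.8% rose and 31.5% fell in WT yeast, and 21.8% and 24% in AhPDF1.1b yeast. VTC4 (YJL012C), the gene of the catalytic subunit that makes polyphosphate and moves it into the vacuole, had signals of 7.73 and 7.76 in WT yeast and 7.60 and 7.45 in AhPDF1.1b yeast on control medium, and 8.17 and 8.20 in WT yeast and 7.81 and 7.71 in AhPDF1.1b yeast under zinc. The 2 WT arrays under zinc were the highest, and the AhPDF1.1b controls were the lowest. VTC4 rose with zinc, by 0.44 in WT yeast (SE 0.073, adjusted p = 0.00039) and by 0.24 in AhPDF1.1b yeast (SE 0.073, adjusted p = 0.022). The latter did not pass when only the arrays compared were fitted, or without AhPDF1.1b control replicate 2 or AhPDF1.1b zinc replicate 1.

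VTC3 and VTC2 encode the alternative regulatory subunits of this complex. VTC3 (YPL019C) had signals of 8.35 and 8.36 in WT yeast and 7.95 and 8.06 in AhPDF1.1b yeast on control medium, and 8.57 and 8.49 in WT yeast and 8.41 and 8.46 in AhPDF1.1b yeast under zinc. The AhPDF1.1b controls stood below all other arrays. Its change with zinc was 0.42 in AhPDF1.1b yeast (adjusted p = 0.0006), while the 0.18 in WT yeast (adjusted p = 0.048) was at the threshold. The latter did not pass under 12 of 18 alternatives. Among these were slide as a block (adjusted p = 0.068), quantile normalization and median centring. It also did not pass when any 1 array of WT yeast, or of AhPDF1.1b yeast under zinc, was left out. VTC2 fell slightly, with changes of -0.28 and -0.21 (adjusted p = 0.0043 and 0.023). The decrease of VTC2 in AhPDF1.1b yeast did not pass with slide as a block or when only the arrays compared were fitted. It also did not pass without AhPDF1.1b control replicate 1 or AhPDF1.1b zinc replicate 2. VTC1, the gene of the small membrane subunit, passed in no comparison.

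Among the ABC transporters, YBT1 (YLL048C), the bile acid transporter gene, had signals of 9.90 and 9.73 in WT yeast and 10.08 and 9.94 in AhPDF1.1b yeast on control medium, and 9.29 and 9.08 in WT yeast and 9.44 and 9.40 in AhPDF1.1b yeast under zinc. The zinc arrays lay below the control arrays in both yeasts, with changes of -0.63 and -0.59 (adjusted p = 0.00014 and 0.00042). BPT1, which encodes an ABC pump of glutathione conjugates and cadmium, changed by -0.23 in WT yeast (adjusted p = 0.032, not passed when any 1 of the 4 WT arrays was left out, nor with slide as a block at -0.19, adjusted p = 0.12) and by 0.16 in AhPDF1.1b yeast (adjusted p = 0.13). YCF1, the gene of the related cadmium pump, changed by -0.17 and 0.09, passed in no comparison, and had the widest spread of any member between replicates, 10.42 and 10.85 in the AhPDF1.1b controls.

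Of the 4 member genes of fusion and inheritance 2 fell with zinc in WT yeast, and in AhPDF1.1b yeast 2 fell and 1 rose. Over all genes 31.5% fell in WT yeast, and 24% fell and 21.8% rose in AhPDF1.1b yeast. The largest change was that of VAC8 (YEL013W), whose armadillo repeat protein anchors the vacuole for its inheritance and its contact with the nucleus. Its signals were 8.85 and 8.68 in WT yeast and 8.70 and 8.55 in AhPDF1.1b yeast on control medium, and 8.20 and 7.96 in WT yeast and 8.20 and 8.25 in AhPDF1.1b yeast under zinc. No zinc array reached a control array, and the changes were -0.68 in WT yeast (adjusted p = 0.00011) and -0.40 in AhPDF1.1b yeast (adjusted p = 0.0058). Of the SNARE genes, VAM3 rose with zinc in AhPDF1.1b yeast with a change of 0.31 (adjusted p = 0.0047; 0.04 in WT yeast, adjusted p = 0.69), VAM7 had changes of -0.17 and -0.22 (adjusted p = 0.048 and 0.018), and NYV1 passed in no comparison. The decrease of VAM7 in WT yeast did not pass under 10 of 18 alternatives. Among these were slide as a block (adjusted p = 0.16), the replicate block, the filter on dim genes and any 1 WT array left out. In AhPDF1.1b yeast the decrease of VAM7 did not pass when only the arrays compared were fitted. The same held without AhPDF1.1b control replicate 2 or AhPDF1.1b zinc replicate 1. That of VAC8 in AhPDF1.1b yeast did not pass without AhPDF1.1b control replicate 1.

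Of 61 other vacuolar genes listed for comparison 41 were matched to a probe. They too were chosen by function with earlier results of these data known. Among the 41, 17 rose and 10 fell with zinc in WT yeast, beside 27.8% and 31.5% of all genes, with a median of 0.09. Among the other hydrolases, PHO8, the vacuolar alkaline phosphatase gene, rose by 0.71 (adjusted p = 1.1e-05), and PPN1, which encodes a polyphosphatase, had a change of -0.54 (adjusted p = 0.00012). NTH1, the trehalase gene of that list, rose by 0.73 (adjusted p = 1.1e-05), but its product is cytosolic, and without it 16 of 40 rose. In the other V-ATPase list 1 gene rose and 2 fell of 5 measured, namely PKR1, a VO assembly factor gene, at 0.34, OXR1 at -0.32 and VMA9, the gene of the small VO subunit e, at -0.29 (adjusted p = 0.0012, 0.0032 and 0.018). Of the transporters, 5 rose and 4 fell of 13. The largest increases were those of UGA4, a GABA permease gene, at 0.98, and SMF3, the gene of a vacuolar iron exporter, at 0.91 (adjusted p = 1.2e-06 and 2.4e-06). In the list of fusion and inheritance genes 8 rose and 3 fell of 19, with VPS41, a subunit of the HOPS tethering complex, at 1.19 (adjusted p = 9.8e-07) and YPT7, the Rab GTPase that recruits it, at -0.62 (adjusted p = 5.5e-05).

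On control medium AhPDF1.1b changed few vacuolar transcripts. Of the 38 members 2 fell and 0 rose (limma). The share that changed, 5.26%, was near the 5.65% of all genes, of which 2.65% fell and 3% rose. At an unadjusted p under 0.05, 8 were lower and 0 higher, and 25 of 38 estimates were negative. The matching shares of all genes were not counted, so these counts do not set the members apart. The median log2 change was -0.05 for the members and -0.002 for all genes. The members that fell were APE3, by 0.45 from the signals given above (SE 0.073, adjusted p = 0.0062), and VTC3, by 0.35 (SE 0.069, adjusted p = 0.017). For both genes the 2 AhPDF1.1b arrays were below the 2 WT arrays. Groups that did not overlap were found for 48.5% of all genes in this comparison. Neither passed without WT control replicate 1, and VTC3 also did not pass without WT control replicate 2 or AhPDF1.1b control replicate 1. All 4 VTC genes had negative estimates, with a median of -0.22. None of the 14 V-ATPase subunit genes passed, and their log2 changes ranged from -0.20 to 0.08.

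Under zinc, AhPDF1.1b yeast had higher levels than WT yeast of part of the V-ATPase and assembly genes in the fit without slide. Only VMA1 and CUP5 of these were still higher at the threshold with slide as a block. Without the block 5 of the 14 subunit genes rose and 1 fell. The share of them that changed, 42.9%, was below the 48.8% of all genes. Of the 38 members 13 rose and 2 fell, where 26.8% of all genes rose and 22% fell, so that the share of members that changed, 39.5%, was below the 48.8% of all genes. Of the 23 members among the 1557 genes with the highest mean signal 6 rose and 1 fell, whereas 38.6% of the 1557 rose and 25.5% fell. The 2 groups did not overlap for 27 of the 38 members, beside 73.8% of all genes. With slide as a block 4 of the 38 members rose and 2 fell, beside 14.3% and 13.9% of all genes. The 4 were VMA1, CUP5, PBI2 and BPT1, with changes in that fit of 0.43, 0.33, 0.73 and 0.38 (adjusted p = 0.033, 0.041, 0.015 and 0.039).

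**Figure D4:**
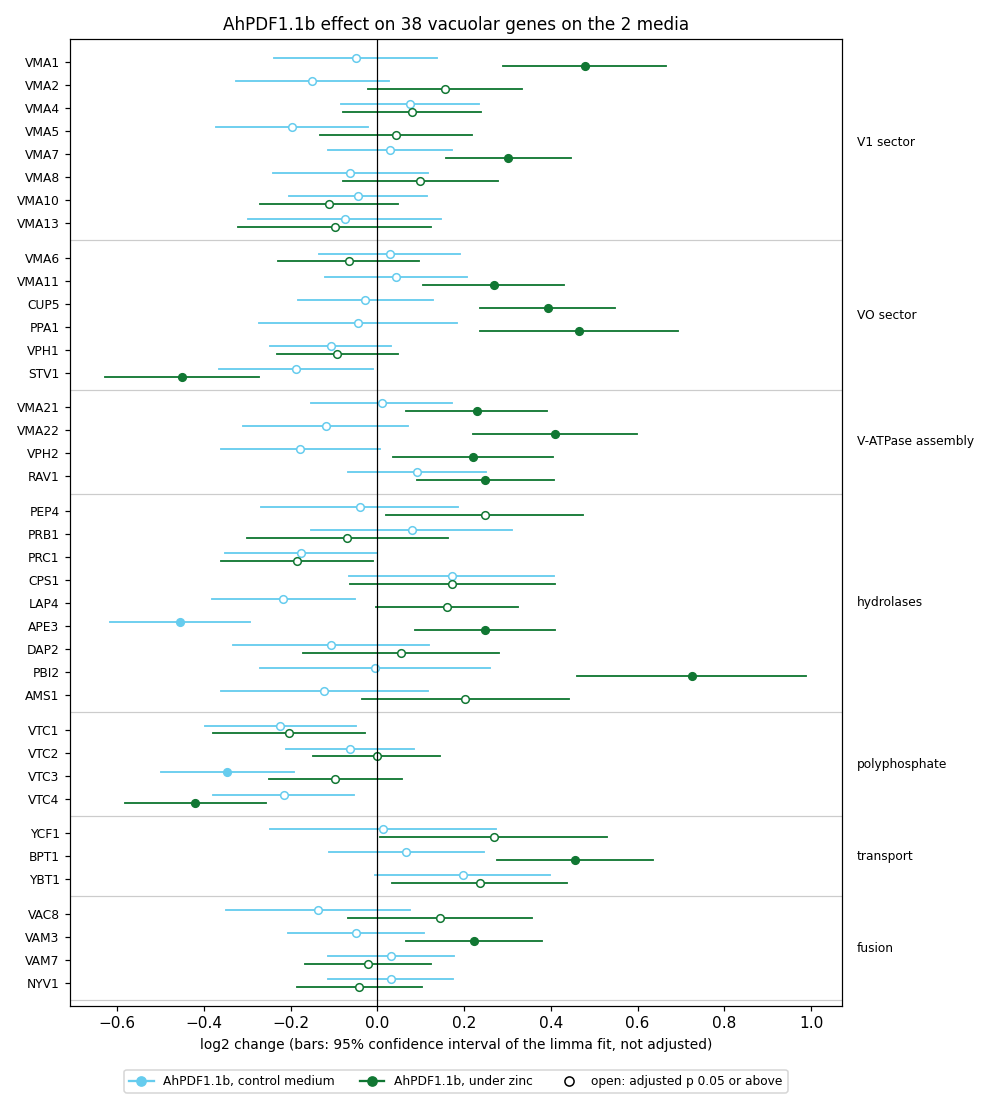
Log2 change with AhPDF1.1b (x axis) of each of the 38 vacuolar members (rows, grouped by class) on control medium and under zinc, with bars for the 95% confidence interval of the limma fit and open circles for changes at an adjusted p of 0.05 or above. On control medium the filled points are APE3 and VTC3, and under zinc 13 members are filled to the right of 0 and 2 (STV1 and VTC4) to the left.

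All 4 assembly genes rose with AhPDF1.1b under zinc without the block, with changes of 0.41 for VMA22, 0.25 for RAV1, 0.23 for VMA21 and 0.22 for VPH2 (adjusted p = 0.0027, 0.015, 0.025 and 0.048), and none of them passed with the block, where the changes were 0.28, 0.26, 0.16 and 0.22 (adjusted p = 0.1, 0.11, 0.3 and 0.23). VMA21 and RAV1 also did not pass without 1 or another of the zinc arrays. VPH2 did not pass under 9 of 18 alternatives. Among these were the replicate block, the fit of only the arrays compared and any 1 control array left out. The others were slide as a block, and WT zinc replicate 1 or AhPDF1.1b zinc replicate 2 left out. Among the subunits, the change was 0.48 for VMA1 (SE 0.085, adjusted p = 0.001), 0.47 for PPA1 (adjusted p = 0.0037), 0.39 for CUP5 (adjusted p = 0.0011), 0.30 for VMA7 (adjusted p = 0.0031) and 0.27 for VMA11 (adjusted p = 0.012). The remaining V1 genes had changes from -0.11 to 0.16 and did not pass. With slide as a block the changes of PPA1, VMA7 and VMA11 were 0.30, 0.26 and 0.20 and did not pass (adjusted p = 0.13, 0.08 and 0.2). VMA11 also did not pass without WT zinc replicate 2 or AhPDF1.1b zinc replicate 2.

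STV1 had the opposite sign, with a change of -0.45 (SE 0.08, adjusted p = 0.001), and -0.50 with slide as a block (adjusted p = 0.014). VPH1 had a change of -0.09 (adjusted p = 0.26). VTC4 was the other member that fell, with a change of -0.42 (adjusted p = 0.00091) and -0.33 with the block (adjusted p = 0.042).

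The member with the largest change was PBI2, at 0.72 (SE 0.12, adjusted p = 0.00064), or 1.65-fold. BPT1, with signals of 9.29 and 9.31 in WT yeast and 9.29 and 9.45 in AhPDF1.1b yeast on control medium, and 9.04 and 9.11 in WT yeast and 9.61 and 9.46 in AhPDF1.1b yeast under zinc, was highest in AhPDF1.1b yeast under zinc and lowest in WT yeast under zinc, a change of 0.46 (SE 0.081, adjusted p = 0.001). APE3 and VAM3 changed by 0.25 and 0.22 (adjusted p = 0.017 and 0.023), and neither passed with the block (adjusted p = 0.068 and 0.084) or without AhPDF1.1b zinc replicate 1 or WT zinc replicate 2. For APE3 the sign was thus opposite to that on control medium. VPS41 and VTI1 of the other fusion genes, a HOPS subunit and a SNARE, had changes of -0.85 and -0.81 (adjusted p = 2.4e-05 and 9.0e-05), and of -0.86 and -0.82 with the block (adjusted p = 0.0015 and 0.0038).

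Whether zinc acted differently in the 2 yeasts was tested for each gene as an interaction, which is positive where AhPDF1.1b yeast had the more positive response. It was above 0 and passed for 10 of the 38 members, where 17.7% of all genes passed in that direction, and no member passed below 0 (limma), where 16% of all genes did, or 33.6% in both directions. Of the 23 members among the 1557 genes with the highest mean signal 6 passed above 0 and 0 below, beside 27.6% and 21% of the 1557. At an unadjusted p under 0.05, 13 members were above 0 and 1, STV1, below 0. The shares of all genes at that threshold were not counted, so these unadjusted counts do not set the members apart. Of these 10 members, 8 responded to zinc in 1 direction in the 2 yeasts, with the weaker response in AhPDF1.1b yeast. The estimates of VMA7 and BPT1 had opposite signs. Over all genes the zinc response was also narrower in AhPDF1.1b yeast. The 5th to 95th percentiles of the log2 change were -0.84 to 0.94 in WT yeast and -0.59 to 0.69 in AhPDF1.1b yeast. A weaker response was thus not particular to the members, and the share of all genes with this pattern was not counted. The interaction shares its arrays with all of the comparisons above and adds the test of the difference itself.

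The largest values were those of PBI2, 0.73 (SE 0.17, adjusted p = 0.0075), and APE3, 0.70 (SE 0.1, adjusted p = 0.00056). With slide as a block these were the 2 members that still passed, at 0.74 and 0.76 (adjusted p = 0.042 and 0.0045). In APE3 the lower level of AhPDF1.1b yeast on control medium and its higher level under zinc both enter the difference, whereas the control arrays of PBI2 overlapped between the 2 yeasts.

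Of the V-ATPase genes, VMA1 had an interaction of 0.53, VMA22 of 0.53, PPA1 of 0.51, CUP5 of 0.42, VPH2 of 0.40 and VMA7 of 0.27 (adjusted p = 0.0067, 0.0072, 0.021, 0.0084, 0.024 and 0.042). With slide as a block none of these passed, at 0.48, 0.40, 0.35, 0.36, 0.40 and 0.23 in the same order (adjusted p = 0.058, 0.08, 0.18, 0.078, 0.1 and 0.22). LAP4 and BPT1 had interactions of 0.38 and 0.39 (adjusted p = 0.018 and 0.024), and of 0.37 and 0.32 with the block (adjusted p = 0.093 and 0.16). The interactions of VMA7, PPA1, VPH2, LAP4 and BPT1 each did not pass when any of at least 4 of the 8 arrays was left out, and without WT control replicate 1 a total of 6 members passed. The other 10 subunit genes, VPH1 and STV1 among them, did not pass. For VPH1 the difference was 0.02, with a 95% confidence interval from -0.18 to 0.21, and for STV1 it was -0.26, with an interval from -0.51 to -0.01.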

How the data were processed

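Total RNA of 8 samples, 2 per condition, was labelled with Cy3 and hybridised to 1-colour Agilent arrays. The deposited log2 values had been normalized by the authors, for which R (2.14.2) and limma are listed in the submitters' processing notes. For the background correction and scaling the method was not given in the sources read. No raw intensities were used. Of 6227 probes 4061 had 1 gene symbol, 0 had several and 2166 were unnamed, and 129 symbols were updated through RefSeq names. Probes of 1 gene were averaged, giving 6226 genes, with each unnamed probe kept as 1. All were fitted with limma 3.58.1 in R 4.3.3 as 4 group means over the 8 arrays, with 4 residual degrees of freedom, moderated by eBayes. Benjamini-Hochberg adjustment ran over all genes and the threshold was 0.05. The fit was run on simulated data with independent noise and changes only in AhPDF1.1b yeast under zinc. These data held no slide effect, so the run does not bear on the slides. Errors are standard errors of the fit, and intervals are unadjusted 95% confidence intervals. The precision is limited by the 2 arrays per group.

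The members and lists were chosen by function, with earlier results of these data known. Values on each array were given for members that passed with groups that did not overlap, up to 8 of each sign per comparison. VMA7, VMA11, VMA13 and VAM3 also met this rule, but their values on each array were not given. VPH1, PEP4, VAC8 and YCF1 were added after their values were seen. From each list of other genes up to 3 with the smallest p were named. Alternatives were quantile normalization, median centring, replicate number or slide as a block, array weights, robust moderation with an intensity trend, fits of only the arrays compared, a filter on the dimmest 25% of genes, the probe with the highest mean, and each array left out in turn. Deviations from the group means of same-numbered arrays correlated between -0.53 and 0.54 over the pairs of groups, so the numbers were not taken to pair samples. No sequences or promoters were analysed here.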

Additional observations from a re-analysis of the deposited data

Results flagged for a closer look

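The effect of zinc differed between WT yeast and AhPDF1.1b yeast, by the limma test of the interaction with adjustment over all genes, for 10 vacuolar members, beside 33.6% of all genes in either direction. The interaction was 0.53 for VMA1, 0.27 for VMA7, 0.42 for CUP5 and 0.51 for PPA1 among the V-ATPase subunits. It was 0.53 for VMA22 and 0.40 for VPH2, the assembly factors. For the hydrolases and the inhibitor it was 0.38 for LAP4, 0.70 for APE3 and 0.73 for PBI2, and for the transporter BPT1 it was 0.39. The zinc arrays of WT yeast all lay on 1 slide and those of AhPDF1.1b yeast on the other. With slide as a block, which estimates the slide from the control arrays, APE3 and PBI2 still passed. In the order above, the estimates with the block were 0.48, 0.23, 0.36, 0.35, 0.40, 0.40, 0.37, 0.76, 0.74 and 0.32. The standard errors were also larger, for VMA1 0.16 instead of 0.12. Deviations from the group means of the WT and AhPDF1.1b control arrays on the same slide correlated at -0.34 over all genes. The part of the slide in the other 8 was not tested further. No group held the 4 samples that a test for a single deviating array needs.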

How the results depend on the processing

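Of 83 calls of members over the 5 comparisons, 0 changed direction under any alternative. Quantile normalization and median centring each lost 1 call, that of VTC3 with zinc in WT yeast, whereas slide as a block lost 23. With slide as a block 4 members rose with AhPDF1.1b under zinc instead of 13, and 2 had a positive interaction instead of 10. With the replicate number as a block 4 calls were lost, those of VTC3 and VAM7 with zinc in WT yeast, VPH2 with AhPDF1.1b under zinc and VMA7 in the interaction, and the number of members with a positive interaction was 9 instead of 10. The same block with the numbers of AhPDF1.1b yeast under zinc exchanged, an alternative chosen after seeing the data, gave 16 positive interactions and 1 negative. When single arrays were left out, zinc in WT yeast raised 3 to 4 members and lowered 22 to 26, and zinc in AhPDF1.1b yeast raised 3 (without AhPDF1.1b zinc replicate 1) to 6 and lowered 17 to 21. AhPDF1.1b on control medium raised 0 and lowered 0 (without WT control replicate 1) to 2. Under zinc it raised 10 to 13 and lowered 2 to 3. The interaction was positive for 6 (without WT control replicate 1) to 11 members and negative for 0 to 1 (without AhPDF1.1b control replicate 1). An array left out leaves 1 in its group, which is then assumed to vary like the others. The calls that passed under each alternative were 25 of 30 with zinc in WT yeast, 17 of 26 with zinc in AhPDF1.1b yeast, 0 of 2 with AhPDF1.1b on control medium, 6 of 15 under zinc and 2 of 10 in the interaction. No member was at or below the signal of the deleted genes LEU2 and MET17 on any array.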

Other observations

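Some vacuolar genes outside the member list also changed differently in the 2 yeasts. PMC1, the vacuolar calcium pump gene, had a log2 change with zinc of 0.66 in AhPDF1.1b yeast (adjusted p = 1.6e-05, limma) and 0.02 in WT yeast, with an interaction of 0.64 (adjusted p = 0.00041). UGA4, the GABA permease gene that rose with zinc in WT yeast, changed by 0.16 in AhPDF1.1b yeast, with an interaction of -0.82 (adjusted p = 0.00021). VPS41 rose by 1.19 with zinc in WT yeast and had a change of 0.20 in AhPDF1.1b yeast, an interaction of -0.99 (adjusted p = 0.00019). ATG18, the gene of a phosphoinositide-binding protein of the vacuole, had changes of 0.23 and -0.35, an interaction of -0.58 (adjusted p = 0.0013). Over the 41 other vacuolar genes the interaction passed above 0 for 5 and below 0 for 12, beside 17.7% and 16% of all genes, and with slide as a block for 3 and 6, beside 9.64% and 10.6%. With that block the interactions of PMC1, UGA4, VPS41 and ATG18 were 0.64, -0.84, -0.99 and -0.52 (adjusted p = 0.0063, 0.003, 0.0028 and 0.019).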
